A study of Homo sapiens with 12 samples.

Results

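The genes described here are SOX2, the long non-coding transcript SOX2-OT that surrounds it and 8 other SOX genes (SOX21, SOX4, SOX11, SOX12, SOX13, SOX9, SOX7 and SOX15). They were picked by name from a table of estimated counts and make up 10 of its 29744 entries, and each was followed through 4 groups of cells with 3 biological replicates each. All cells derive from MB157, an established human triple-negative breast cancer (TNBC) cell line whose NOTCH1 lacks the extracellular domain and still depends on γ-secretase, and MB157R is the derivative obtained after 25 weeks in 1 µM of the γ-secretase inhibitor (GSI) LY3039478. The groups were MB157R iN1-ICD, which are MB157R cells with an inducible NOTCH1 construct, MB157R iEV, which carry the empty vector, MB157 iSOX2, which are MB157 cells with an inducible SOX2 cDNA, and MB157 iEV with the empty vector. All 4 groups, the controls included, were transduced with a lentiviral vector under a doxycycline-responsive promoter and received doxycycline over 72 h. The labels give a dose of 1 µg/ml, which is the upper end of the range in the study's methods. The construct behind iN1-ICD is a NOTCH1 that lacks its extracellular part by the study's methods, and whether MB157R cells were still in GSI at harvest is not given in the sources used here. Neither a single clone nor a pool is named for the transduced cells.

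SOX proteins bind DNA through an HMG box, bend it, and act with partner factors. SOX2 (group B1) maintains pluripotent and neural stem cells, SOX21 (group B2) counteracts B1 factors in the neural tube, SOX4, SOX11 and SOX12 form group C of progenitor cells, SOX13 with SOX5 and SOX6 forms group D, SOX9 with SOX8 and SOX10 forms group E of cartilage, glia and mammary stem cells, SOX7 with SOX17 and SOX18 forms group F of the endothelium, and SOX15 is the only member of group G. SOX2-OT is a spliced non-coding RNA that runs in the same direction as SOX2 and holds it within an intron. Signals through NOTCH reach the nucleus as the intracellular domain N1-ICD, which binds RBPJ and switches on repressors of the HES and HEY families.

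Each library held between 32773820 and 49055208 estimated counts. Levels are CPM, which are counts divided by the library's total, set to a common total and scaled over the 12 libraries by the trimmed mean of M values (TMM). A change was called when edgeR's quasi-likelihood test gave a Benjamini-Hochberg adjusted p under 0.05 over all genes tested in a comparison, and "adjusted p" refers to it throughout. Values given as "-fold" are ratios of mean CPM on the scale of the 12 libraries. Log2 fold changes come from the fit of each comparison with its own scaling, so they need not match those ratios exactly. The 2 introduced genes were highest in the groups labelled with them, with NOTCH1 at a mean of 2348 CPM in MB157R iN1-ICD and 94.9 CPM in MB157R iEV, and SOX2 as given further on. The 5 epithelial markers were present in all groups and moved unequally, since KRT8, KRT18 and KRT19 were called higher and EPCAM and CDH1 lower in MB157R iEV than in MB157 iEV. Their sum was 5233 to 6068 CPM in MB157R iN1-ICD, 3762 to 3858 CPM in MB157R iEV, 1605 to 1643 CPM in MB157 iSOX2 and 1905 to 1941 CPM in MB157 iEV. The basal markers summed to 6884 to 8708, 1252 to 1284, 221 to 252 and 904 to 966 CPM in these groups, the neural markers to 116 to 122, 141 to 148, 93.6 to 99.8 and 103 to 107 CPM, and the fibroblast markers to 7.84 to 9.15, 5.27 to 6.28, 42.2 to 47.1 and 25.6 to 28.4 CPM. These lists moved unequally too. TUBB3 made up most of the neural sum, at 84.0, 130, 95.8 and 104 CPM in the same order of groups. NES averaged 35.1, 13.6, 1.01 and 0.941 CPM in that order. In MB157R iN1-ICD against MB157R iEV, NES was called higher and TUBB3 lower, and in MB157R iEV against MB157 iEV both were called higher. In MB157R iEV against MB157 iEV, KRT17 and TP63 were called higher and KRT5 and KRT14 lower. There PDGFRB was also called higher (2.32 and 0.114 CPM) and PDGFRA lower (3.29 and 26.9 CPM). Of the leukocyte markers CD3E was at 0 counts in all 4 groups, PTPRC had between 1 and 28 counts per group, and CD68 averaged 11.8, 4.36, 1.05 and 2.23 CPM and was called in all 3 comparisons. The part of these markers in the SOX values was not tested. In bulk RNA of this kind, fewer cells that express a gene and less RNA per cell cannot be told apart.

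The promoters of 3 genes that stood highest above MB157 iEV in MB157 iSOX2 cells are printed to show what lies just before their start sites. The RefSeq windows on GRCh38.p14 cover the 250 bases before each start, for SOX2 at chr3:181711675-181711924 (plus strand), for SOX2-OT at chr3:181056430-181056679 (plus strand, the first of 3 RefSeq starts) and for SOX21 at chr13:94712546-94712795 (minus strand). Capitals mark a SOX core motif, ACAAT or ACAAAG, on either strand.
SOX2: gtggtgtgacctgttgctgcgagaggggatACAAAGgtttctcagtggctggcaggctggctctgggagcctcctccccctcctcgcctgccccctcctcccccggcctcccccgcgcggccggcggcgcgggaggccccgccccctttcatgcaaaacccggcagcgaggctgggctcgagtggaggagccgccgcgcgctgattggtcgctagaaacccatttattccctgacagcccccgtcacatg
SOX2-OT: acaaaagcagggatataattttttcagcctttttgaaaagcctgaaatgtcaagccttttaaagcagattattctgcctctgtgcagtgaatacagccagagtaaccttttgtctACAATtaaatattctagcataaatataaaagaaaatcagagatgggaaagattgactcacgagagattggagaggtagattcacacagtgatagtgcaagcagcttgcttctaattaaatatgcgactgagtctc
SOX21: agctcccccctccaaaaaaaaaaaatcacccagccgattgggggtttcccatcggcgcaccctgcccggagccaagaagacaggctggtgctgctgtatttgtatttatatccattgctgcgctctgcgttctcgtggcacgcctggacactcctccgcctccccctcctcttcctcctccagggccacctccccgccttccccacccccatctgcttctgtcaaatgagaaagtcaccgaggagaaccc

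The SOX2 window held ACAAAG at 220 bases before the start, a motif found in 13.7% of all 35116 RefSeq windows of this length. The SOX2-OT window held ACAAT at 135 bases before the start, found in 24.6% of all windows, and TGGGAA, the core that RBPJ binds, at 93 bases before it, found in 20.8%. Both further SOX2-OT windows held a SOX core as well. The SOX21 window held neither SOX core, and TGGGAA lay on its opposite strand at 205 bases. Among the other windows searched, SOX4 held TGGGAA and the HES/HEY box CACGCG (9.72% of all windows), SOX12 held the octamer ATGCAAAT (1.63%), and SOX13 held none of the 6 motifs, of which the E-box CACGTG (6.34%) was in no window of these genes. Both strands were searched and no matches overlapped. RefSeq windows were matched for 6 of the 10 genes, and SOX11, SOX9, SOX7 and SOX15 had none in the table used. A match of letters describes the window and is no sign of binding.

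**Figure D1:**
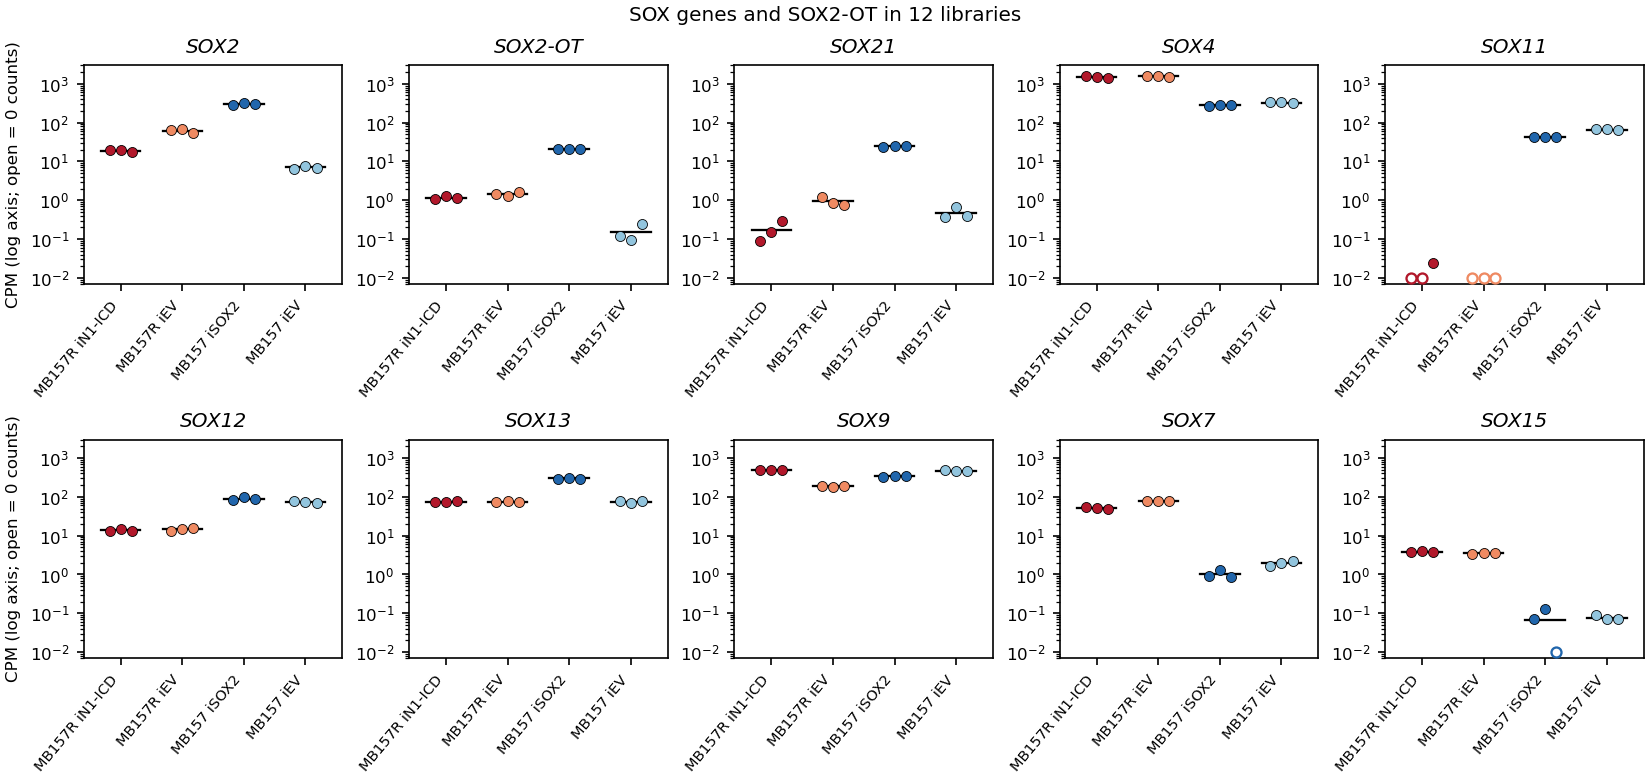
CPM (log axis) of the 10 genes in each library, with 1 point per library, open points at the foot of the axis for libraries with 0 counts and a black line at the group mean. SOX2, SOX2-OT, SOX21 and SOX13 are highest in MB157 iSOX2, SOX4, SOX7 and SOX15 are highest in the 2 MB157R groups, and SOX11 and SOX12 are highest in the 2 MB157 groups.

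The design set 3 comparisons, and most of the genes tested were called between MB157R iEV and MB157 iEV cells. In MB157R iEV against MB157 iEV, 9 of the 10 genes were called, 6 higher and 3 lower, where 45.0% of the 11435 genes in the authors' filtered table were called higher and 45.3% lower. SOX2-OT and SOX21 were not in that table and were tested among the 16726 entries with a mean count of at least 5, of which 86.7% were called. In MB157 iSOX2 against MB157 iEV, 9 of 9 tested genes were called, 5 higher and 4 lower, against a background of 32.5% higher and 33.9% lower among 10904 genes, and 56.3% called among 16397 entries of the wider set, in which SOX7 was tested. SOX15 was too low to test there. In MB157R iN1-ICD against MB157R iEV, 4 of 9 tested genes were called, 1 higher and 3 lower, where 29.8% of 11210 genes were called higher and 29.3% lower. SOX2-OT and SOX21 were again tested in the wider set, of which 52.8% of 15996 entries were called, and SOX11 could not be tested. The first and second comparisons share the MB157 iEV libraries, and the first and the third share the MB157R iEV libraries. With shares of this size in the background, the count of members called says little about the SOX genes as a set, and the sizes and directions for single genes follow.

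**Figure D2:**
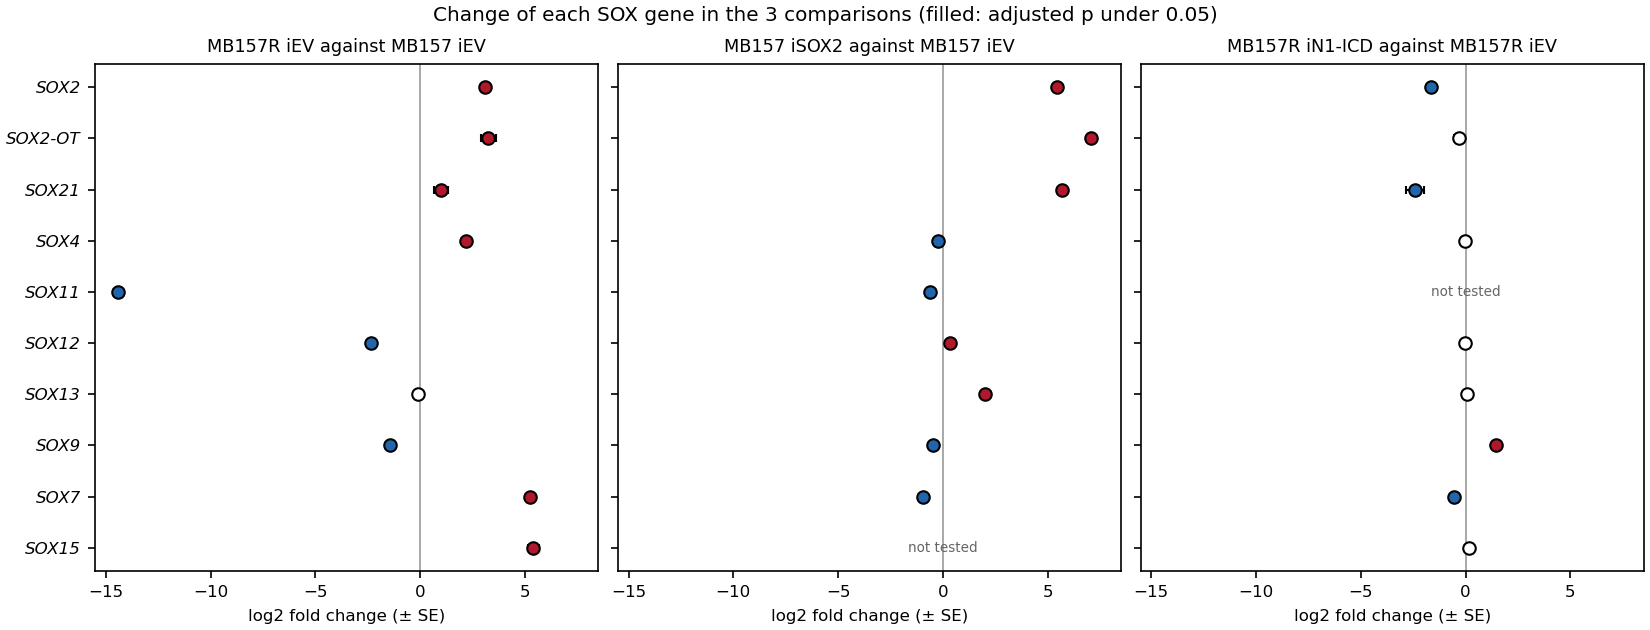
Log2 fold change with its standard error (bars, often smaller than the point) for the 10 genes in the 3 comparisons, filled red where called higher, filled blue where called lower and open where not called. SOX2 and SOX21 lie right of 0 in the first and second panels and left of 0 in the third, and SOX11 lies at -14.43 in the first, a value that depends on the prior count because MB157R iEV held 0 counts.

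SOX2 was expressed in all 12 libraries and its level set all 4 groups apart. SOX2 lies at chr3:181711925-181714436 on the plus strand as 1 exon. It stood at 19.6, 20.0 and 17.4 CPM in MB157R iN1-ICD, 63.8, 67.0 and 55.2 CPM in MB157R iEV, 285, 328 and 293 CPM in MB157 iSOX2, and 6.48, 7.58 and 6.87 CPM in MB157 iEV. No pair of groups overlapped, and MB157 iEV was the lowest. In MB157R iEV cells SOX2 was 8.89-fold higher than in MB157 iEV cells, with a fitted log2 fold change of 3.08 ± 0.09 (SE, adjusted p = 9.3e-13, edgeR). In MB157R iN1-ICD cells it fell by 1.67 on the log2 scale relative to MB157R iEV cells (SE 0.08, adjusted p = 4.0e-08, edgeR), yet it was still above MB157 iEV cells (means of 19.0 and 6.98 CPM, adjusted p = 2.0e-10 in an edgeR fit of all 12 libraries). The SOX2 counts of MB157 iSOX2 cells include reads of the introduced cDNA, so the 43.3-fold higher level there (log2 fold change 5.43 ± 0.06, SE) does not separate it from the cell's own gene.

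SOX2-OT, the host transcript, was nearly silent in MB157 iEV cells. It spans chr3:180989762-181836880 on the plus strand with 119 transcripts in GENCODE v44, of which 63 run across SOX2, and none of its 193 exons overlaps the SOX2 exon, the nearest lying 560 bases before it and 749 bases after it. It stood at 1.05, 1.31 and 1.14 CPM in MB157R iN1-ICD, 1.48, 1.25 and 1.68 CPM in MB157R iEV, 21.2, 21.3 and 20.6 CPM in MB157 iSOX2, and 0.121, 0.0936 and 0.241 CPM in MB157 iEV, which are 4, 4 and 10 counts. The MB157 iSOX2 libraries were the highest, the 2 MB157R groups overlapped, and MB157 iEV was the lowest. The rise in MB157 iSOX2 cells was 139-fold, with a fitted log2 fold change of 7.08 ± 0.15 (SE, adjusted p = 6.8e-16, edgeR), larger than that of SOX2 itself. In MB157R iEV cells SOX2-OT was 9.69-fold higher than in MB157 iEV cells (log2 fold change 3.25 ± 0.36, SE, adjusted p = 3.1e-06, edgeR). In MB157R iN1-ICD against MB157R iEV it was not called (log2 fold change -0.33 ± 0.21, SE, adjusted p = 0.22, edgeR), where SOX2 had fallen. Whether the authors' annotation, which is not named, has the same SOX2-OT exons was not tested.

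Set against SOX2 within each library, SOX2-OT gave 6.14 ± 0.69 counts per 100 SOX2 counts in MB157R iN1-ICD and 2.41 ± 0.59 in MB157R iEV (SD, n = 3 each). The ratio was 6.99 ± 0.48 in MB157 iSOX2 and 2.20 ± 1.17 in MB157 iEV (SD, n = 3 each), so libraries of both induced groups lay above those of their empty-vector controls. In MB157 iSOX2 the denominator includes the introduced cDNA.

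**Figure D3:**
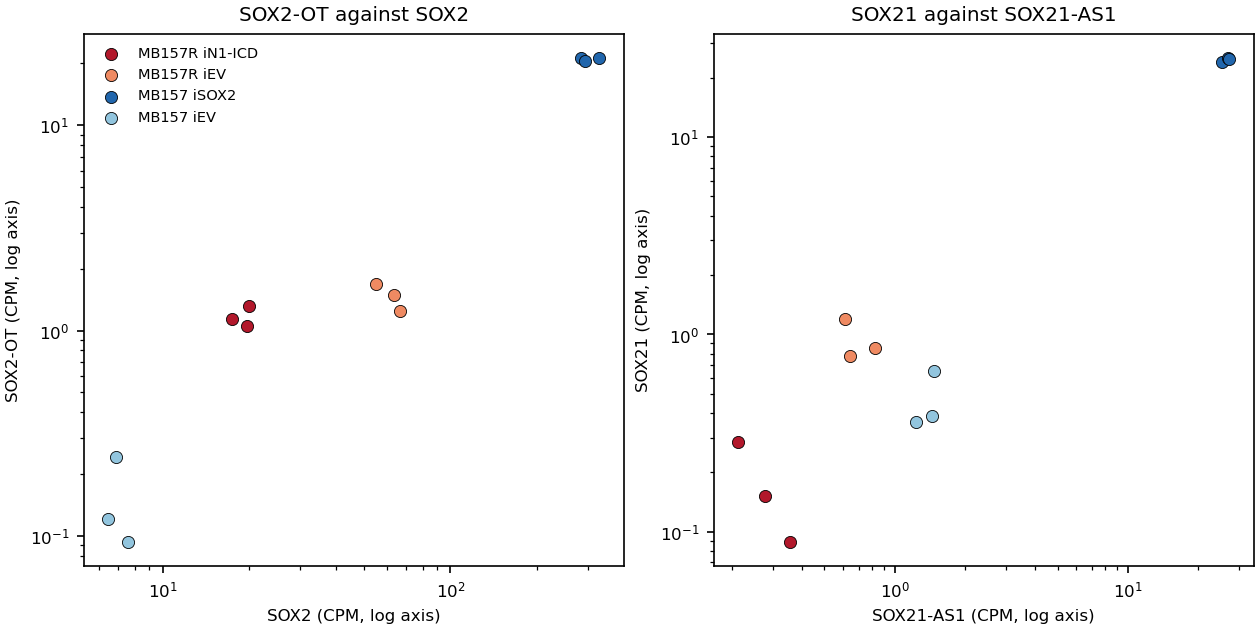
CPM of SOX2-OT against SOX2 (left) and of SOX21 against SOX21-AS1 (right) in 12 libraries, both axes logarithmic, with 1 point per library coloured by group. In the left panel MB157R iN1-ICD lies left of MB157R iEV at much the same height, and in the right panel MB157R iEV lies above and to the left of MB157 iEV while MB157 iSOX2 stands at the top right, near 25 CPM for both transcripts.

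In MB157R iEV and MB157 iSOX2 cells, each against MB157 iEV, the genes around SOX2 moved less than SOX2 and SOX2-OT. The 3 nearest genes with a mean count of at least 5 on the side before SOX2 were TTC14, FXR1 and DNAJC19, and after it ATP11B, DCUN1D1 and MCCC1, all at 722 kb or more from it. DNAJC19, which encodes a mitochondrial import factor and starts beside the 5′ end of SOX2-OT in the opposite direction, averaged 12.8 CPM in MB157R iN1-ICD, 13.5 CPM in MB157R iEV, 30.2 CPM in MB157 iSOX2 and 30.1 CPM in MB157 iEV. Its log2 fold change in MB157R iEV against MB157 iEV was -1.21 ± 0.07 (SE), opposite to SOX2-OT, and in MB157 iSOX2 against MB157 iEV it was 0.01 ± 0.05 (SE, adjusted p = 0.87, edgeR). FXR1, an RNA-binding protein, fell by 0.42 on the log2 scale in MB157 iSOX2 cells (SE 0.03, adjusted p = 6.2e-10, edgeR) and by 0.58 in MB157R iEV cells (SE 0.03), each relative to MB157 iEV. On the other side, MCCC1, a subunit of a leucine-degrading carboxylase, rose by 0.38 on the log2 scale in MB157 iSOX2 cells (SE 0.04, adjusted p = 2.3e-07, edgeR) but fell by 1.14 in MB157R iEV cells (SE 0.05). ATP11B, a phospholipid flippase, had log2 fold changes of 0.26 in MB157R iEV cells and 0.07 in MB157 iSOX2 cells (SE 0.04 each), and of these the first was called. DCUN1D1, a cullin neddylation factor, and TTC14 had values between -0.68 and 0.04 in the 3 comparisons.

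**Figure D4:**
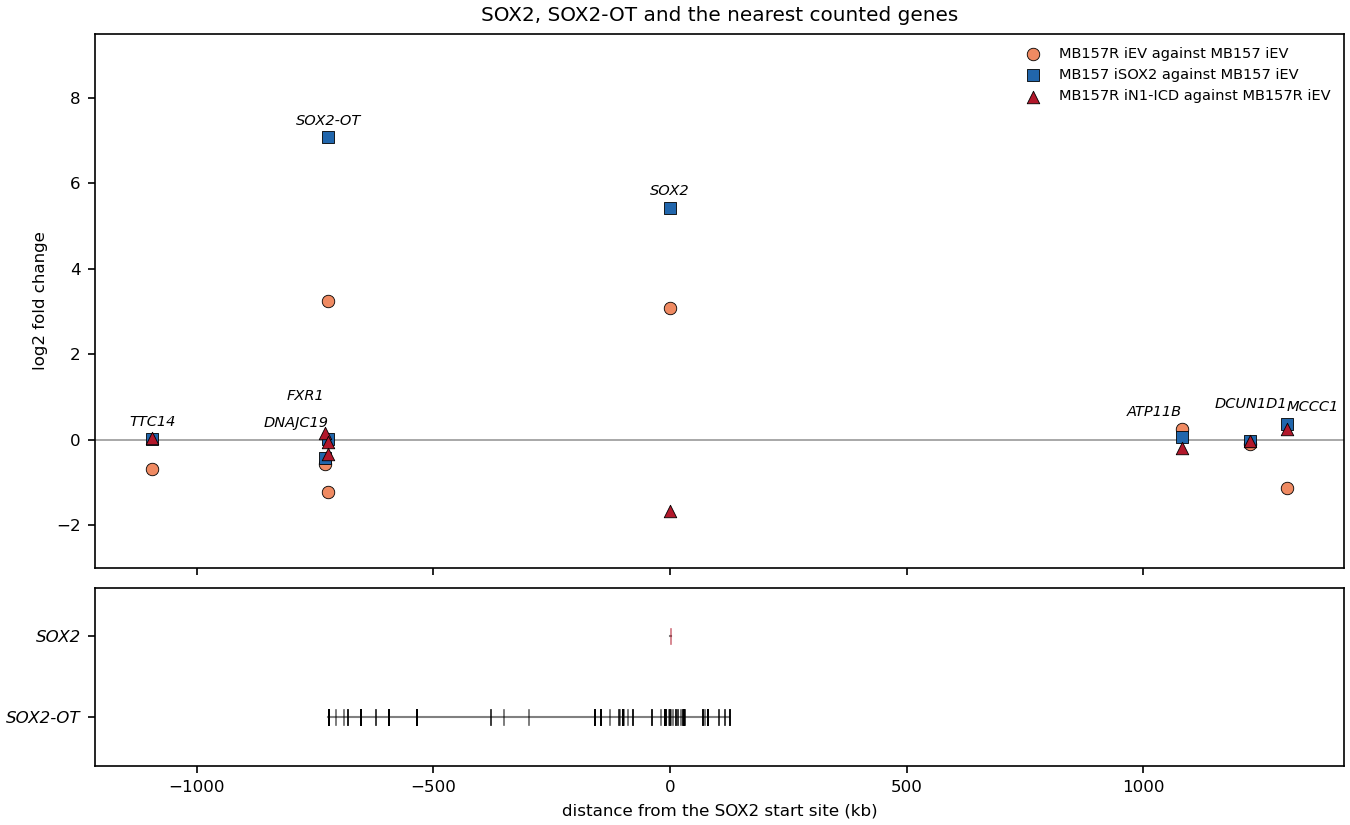
Top, fitted log2 fold change in the 3 comparisons for SOX2, SOX2-OT and the 3 nearest counted genes on each side, plotted at the gene end nearest to SOX2 (SOX2-OT at its first base) by distance from the SOX2 start site in kb. Bottom, the exons of all GENCODE v44 transcripts of SOX2-OT and the SOX2 exon, short exons widened to be seen, and only SOX2 and SOX2-OT exceed a log2 fold change of 2 in either direction.

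SOX21 was low outside MB157 iSOX2 and fell when N1-ICD was induced. It lies at chr13:94709622-94712545 on the minus strand as 1 exon. It stood at 0.0891, 0.151 and 0.285 CPM in MB157R iN1-ICD, 1.20, 0.851 and 0.775 CPM in MB157R iEV, 24.0, 25.2 and 25.0 CPM in MB157 iSOX2, and 0.362, 0.655 and 0.386 CPM in MB157 iEV. The groups did not overlap, but outside MB157 iSOX2 each library held between 4 and 51 counts. In MB157 iSOX2 cells SOX21 rose 52.9-fold, with a fitted log2 fold change of 5.69 ± 0.12 (SE, adjusted p = 7.6e-16, edgeR). In MB157R iN1-ICD cells it fell by 2.40 on the log2 scale relative to MB157R iEV (SE 0.43, adjusted p = 0.00072, edgeR), to a level under that of MB157 iEV cells (means of 0.175 and 0.468 CPM, adjusted p = 0.0018 in the fit of 12 libraries). The higher level in MB157R iEV than in MB157 iEV (log2 fold change 1.00 ± 0.34, SE, adjusted p = 0.015, edgeR) was lost when MB157 iEV replicate 1 (0.86, adjusted p = 0.056), MB157 iEV replicate 3 (0.87, adjusted p = 0.056) or MB157R iEV replicate 1 (0.78, adjusted p = 0.072) was left out.

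SOX21-AS1, a non-coding RNA that starts 171 bases from SOX21 in the opposite direction by RefSeq, rose with SOX21 in MB157 iSOX2 cells and fell with it in MB157R iN1-ICD cells, but was lower in MB157R iEV than in MB157 iEV, where SOX21 was higher by a call that 3 single libraries each decide. It stood at 0.356, 0.277 and 0.213 CPM in MB157R iN1-ICD, 0.612, 0.826 and 0.645 CPM in MB157R iEV, 25.4, 26.8 and 27.2 CPM in MB157 iSOX2, and 1.24, 1.47 and 1.45 CPM in MB157 iEV. No groups overlapped. The log2 fold change was 4.25 ± 0.09 in MB157 iSOX2 against MB157 iEV (SE, adjusted p = 4.0e-16, edgeR), -0.99 ± 0.25 in MB157R iEV against MB157 iEV (SE, adjusted p = 0.0024, edgeR) and -1.27 ± 0.34 in MB157R iN1-ICD against MB157R iEV (SE, adjusted p = 0.0094, edgeR). SOX21 counts per 100 counts of SOX21-AS1 were 25.0, 54.5 and 133 in MB157R iN1-ICD, 196, 103 and 120 in MB157R iEV, 94.6, 94.0 and 91.8 in MB157 iSOX2, and 29.3, 44.4 and 26.7 in MB157 iEV. The MB157R iN1-ICD libraries spanned those of MB157 iEV and rest on 4 to 16 counts of either transcript, whereas MB157R iEV and MB157 iSOX2 both lay above MB157 iEV. The 2 genes share no exon in GENCODE v44, and the authors' counting used strand.

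The 3 genes of group C went different ways. SOX4, a transcription factor of progenitor and cancer cells at chr6:21593751-21598619, stood at 1558, 1513 and 1396 CPM in MB157R iN1-ICD, 1541, 1556 and 1528 CPM in MB157R iEV, 273, 283 and 279 CPM in MB157 iSOX2, and 334, 330 and 323 CPM in MB157 iEV. Both MB157R groups were far above both MB157 groups and overlapped each other. In MB157R iEV cells SOX4 was 4.69-fold higher than in MB157 iEV cells (log2 fold change 2.16 ± 0.03, SE, adjusted p = 4.6e-15, edgeR). In MB157 iSOX2 cells it fell by 0.24 on the log2 scale (SE 0.03, adjusted p = 1.6e-06, edgeR), and in MB157R iN1-ICD against MB157R iEV it was not called (log2 fold change -0.02 ± 0.05, SE, adjusted p = 0.77, edgeR).

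SOX11, a neural progenitor factor of 1 exon at chr2:5692384-5701385, was present in MB157 and had at most 1 count in a library of MB157R. It had 0, 0 and 1 count in the MB157R iN1-ICD libraries and 0 counts in each MB157R iEV library, against 42.3, 43.6 and 41.7 CPM in MB157 iSOX2 and 66.7, 67.4 and 63.3 CPM in MB157 iEV. Against a floor of 3 counts over the 3 MB157R iEV libraries, which is 0.0233 CPM and covers counting error only, SOX11 was at least 2828-fold lower in MB157R iEV cells (adjusted p = 2.4e-14, edgeR). In MB157 iSOX2 cells SOX11 fell by 0.62 on the log2 scale relative to MB157 iEV (SE 0.04, adjusted p = 1.2e-09, edgeR). Induction of N1-ICD left it at 1 count in 3 libraries.

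SOX12, the last of group C, at chr20:325552-330224, fell in MB157R cells as SOX11 did, but remained measurable. It stood at 13.5, 15.1 and 13.0 CPM in MB157R iN1-ICD, 13.3, 15.0 and 15.7 CPM in MB157R iEV, 84.4, 97.5 and 89.9 CPM in MB157 iSOX2, and 77.1, 71.8 and 67.8 CPM in MB157 iEV. MB157R iEV was 4.92-fold lower than MB157 iEV (log2 fold change -2.36 ± 0.07, SE, adjusted p = 1.4e-12, edgeR), and the MB157R groups overlapped. SOX12 rose in MB157 iSOX2 cells (log2 fold change 0.33 ± 0.05, SE, adjusted p = 3.0e-05, edgeR), where SOX4 and SOX11 fell.

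SOX13, the group D gene at chr1:204073115-204127743, was high in MB157 iSOX2 cells and level elsewhere within the spread of the libraries. It stood at 74.5, 72.7 and 80.2 CPM in MB157R iN1-ICD, 72.8, 76.2 and 72.6 CPM in MB157R iEV, 296, 312 and 296 CPM in MB157 iSOX2, and 77.6, 70.2 and 79.3 CPM in MB157 iEV. The MB157 iSOX2 libraries stood alone and the other 3 groups overlapped. The rise was 3.98-fold, with a fitted log2 fold change of 2.0 ± 0.04 (SE, adjusted p = 4.5e-16, edgeR). In MB157R iEV against MB157 iEV the log2 fold change of -0.10 ± 0.05 (SE, adjusted p = 0.081, edgeR) was not called, but it was called without MB157 iEV replicate 2 (-0.14, adjusted p = 0.011) or MB157R iEV replicate 2 (-0.12, adjusted p = 0.039). Other filters brought it nearer to no change. It was -0.027 over entries with a mean count of at least 5 (adjusted p = 0.62, edgeR) and -0.018 with no filter (adjusted p = 0.74, edgeR). In MB157R iN1-ICD against MB157R iEV it was 0.07 ± 0.05 (SE, adjusted p = 0.24, edgeR).

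The other group D genes rose in MB157 iSOX2 cells as well. SOX5 averaged 3.70 ± 0.52 CPM in MB157R iN1-ICD, 3.56 ± 0.40 CPM in MB157R iEV, 7.44 ± 0.67 CPM in MB157 iSOX2 and 1.45 ± 0.12 CPM in MB157 iEV (SD, n = 3 each), and its log2 fold change was 2.37 ± 0.13 in MB157 iSOX2 and 1.31 ± 0.17 in MB157R iEV, each against MB157 iEV (SE, adjusted p = 1.7e-10 and 1.5e-05, edgeR). SOX6 averaged 0.783 ± 0.065 CPM in MB157R iN1-ICD, 2.36 ± 0.30 CPM in MB157R iEV, 13.6 ± 1.24 CPM in MB157 iSOX2 and 7.64 ± 0.45 CPM in MB157 iEV (SD, n = 3 each). SOX6 thus rose in MB157 iSOX2 cells (log2 fold change 0.84 ± 0.09, SE, adjusted p = 2.9e-07, edgeR), and it fell by 1.68 in MB157R iEV cells relative to MB157 iEV (SE 0.13, adjusted p = 8.5e-08, edgeR) and by a further 1.58 in MB157R iN1-ICD cells relative to MB157R iEV (SE 0.20, adjusted p = 7.1e-05, edgeR).

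SOX9, the group E gene at chr17:72121020-72126416, was the only one of the 9 tested that rose when N1-ICD was induced. It stood at 506, 483 and 491 CPM in MB157R iN1-ICD, 186, 184 and 185 CPM in MB157R iEV, 330, 340 and 338 CPM in MB157 iSOX2, and 488, 465 and 469 CPM in MB157 iEV. MB157R iEV was the lowest group, and MB157R iN1-ICD overlapped MB157 iEV. SOX9 was 2.67-fold higher in MB157R iN1-ICD than in MB157R iEV (log2 fold change 1.45 ± 0.03, SE, adjusted p = 1.7e-10, edgeR). It fell by 1.42 on the log2 scale in MB157R iEV cells relative to MB157 iEV (SE 0.03, adjusted p = 2.4e-13, edgeR), and by 0.49 in MB157 iSOX2 cells (SE 0.03, adjusted p = 2.8e-10, edgeR). Between MB157R iN1-ICD and MB157 iEV the difference of 0.06 on the log2 scale was not called (adjusted p = 0.11 in the fit of 12 libraries), but was called without MB157 iEV replicate 1 (0.08, adjusted p = 0.045).

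The non-coding transcript SOX9-AS1 averaged 3.18 ± 0.63 CPM in MB157R iN1-ICD, 2.18 ± 0.09 CPM in MB157R iEV, 5.46 ± 0.74 CPM in MB157 iSOX2 and 5.52 ± 0.62 CPM in MB157 iEV (SD, n = 3 each). It fell by 1.40 on the log2 scale in MB157R iEV cells relative to MB157 iEV (SE 0.14, adjusted p = 4.8e-07, edgeR) and rose by 0.55 in MB157R iN1-ICD cells relative to MB157R iEV (SE 0.18, adjusted p = 0.022, edgeR), both in the direction of SOX9. In MB157 iSOX2 against MB157 iEV it was not called (-0.01 ± 0.12, SE, adjusted p = 0.97, edgeR). SOX8, also of group E, had 0 counts in all 6 MB157R libraries and averaged 4.46 ± 0.56 CPM in MB157 iSOX2 and 9.47 ± 0.65 CPM in MB157 iEV (SD, n = 3 each), which puts MB157R iEV at least 407-fold under MB157 iEV by the same floor (adjusted p = 6.8e-11, edgeR). It fell by 1.08 on the log2 scale in MB157 iSOX2 cells (SE 0.11, adjusted p = 2.2e-07, edgeR).

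SOX7, the group F gene at chr8:10723768-10730511 on the minus strand, was high in MB157R and low in MB157. It stood at 55.2, 50.5 and 49.6 CPM in MB157R iN1-ICD, 78.4, 76.1 and 79.4 CPM in MB157R iEV, 0.911, 1.27 and 0.865 CPM in MB157 iSOX2, and 1.63, 2.04 and 2.17 CPM in MB157 iEV. No groups overlapped. SOX7 was 40.1-fold higher in MB157R iEV than in MB157 iEV cells (log2 fold change 5.25 ± 0.07, SE, adjusted p = 1.6e-15, edgeR). It fell in both induced groups, by 0.56 on the log2 scale in MB157R iN1-ICD relative to MB157R iEV (SE 0.05, adjusted p = 2.6e-06, edgeR) and by 0.94 in MB157 iSOX2 relative to MB157 iEV (SE 0.22, adjusted p = 0.0020, edgeR). The group F gene SOX18 went the other way between the lines, with 3 counts over the MB157R iN1-ICD libraries and 1 over the MB157R iEV libraries, against means of 0.857 ± 0.186 CPM in MB157 iSOX2 and 2.17 ± 0.19 CPM in MB157 iEV (SD, n = 3 each). It was called lower in MB157R iEV than in MB157 iEV (adjusted p = 2.0e-08, edgeR).

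The endothelial markers, of the tissue best known for group F, did not move as a block. CDH5 averaged 0.997 CPM in MB157R iN1-ICD, 1.58 CPM in MB157R iEV, 0.0148 CPM in MB157 iSOX2 and 0 in MB157 iEV. It was called higher in MB157R iEV than in MB157 iEV (adjusted p = 6.0e-07, edgeR) and lower in MB157R iN1-ICD than in MB157R iEV (log2 fold change -0.65 ± 0.24, SE, adjusted p = 0.043, edgeR), both in the direction of SOX7. PECAM1 averaged 0.288 CPM in MB157R iN1-ICD, 0.421 CPM in MB157R iEV, 92.6 CPM in MB157 iSOX2 and 0.0236 CPM in MB157 iEV, and KDR averaged 22.2, 1.68, 3.49 and 1.29 CPM in these groups, so neither was highest where SOX7 was. The 3 together summed to 22.0 to 25.2 CPM in MB157R iN1-ICD, 3.51 to 3.98 CPM in MB157R iEV, 93.0 to 102 CPM in MB157 iSOX2 and 0.964 to 1.59 CPM in MB157 iEV, and their part in the SOX7 values was not tested.

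SOX15, the group G gene at chr17:7588178-7590094 on the minus strand, was nearly confined to MB157R libraries. It stood at 3.81, 4.06 and 3.77 CPM in MB157R iN1-ICD, 3.29, 3.63 and 3.61 CPM in MB157R iEV, 0.0719, 0.132 and 0 CPM in MB157 iSOX2, and 0.0904, 0.0702 and 0.0723 CPM in MB157 iEV. The MB157 libraries held between 0 and 6 counts each, and the 2 lines did not overlap. The level was 45.2-fold higher in MB157R iEV than in MB157 iEV (log2 fold change 5.40 ± 0.27, SE, adjusted p = 3.9e-10, edgeR). Between MB157R iN1-ICD and MB157R iEV it was not called (0.18 ± 0.12, SE, adjusted p = 0.24, edgeR), although their libraries did not overlap.

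The remaining SOX genes of the table were fixed as a list of 10. Of these, 4 were tested in MB157R iEV against MB157 iEV (SOX5 higher, SOX6, SOX8 and SOX18 lower), the same 4 in MB157 iSOX2 against MB157 iEV (2 higher and 2 lower), and 3 in MB157R iN1-ICD against MB157R iEV, where SOX6 alone was called, lower. Over all entries of the wider set 86.7%, 56.3% and 52.8% were called in these comparisons, as given with the members. SOX18 fell by 1.34 on the log2 scale in MB157 iSOX2 cells (SE 0.22, adjusted p = 7.3e-05, edgeR). No other gene of the list reached a group mean of 1 CPM.

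Set per kb of the GENCODE canonical transcript, which allows levels to be compared between genes, SOX4 was the highest in both MB157R groups, at 306 ± 17.1 CPM per kb in MB157R iN1-ICD and 317 ± 2.96 CPM per kb in MB157R iEV (SD, n = 3 each). SOX9 followed at 125 and 47.0 CPM per kb in these groups. SOX2 stood at 7.56 CPM per kb in MB157R iN1-ICD and 24.7 CPM per kb in MB157R iEV, next to SOX7 at 16.1 and 24.3 CPM per kb, so that SOX2 and SOX7 were close in MB157R iEV. In MB157 iSOX2, SOX2 led at 120 CPM per kb, which includes the cDNA over the length of the full transcript, and SOX9, SOX13 and SOX4 followed at 85.4, 73.9 and 57.1 CPM per kb. In MB157 iEV, SOX9 led at 121 CPM per kb before SOX4 at 67.6 CPM per kb, and SOX2 stood at 2.78 CPM per kb, under SOX11 at 7.31 CPM per kb.

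**Figure D5:**
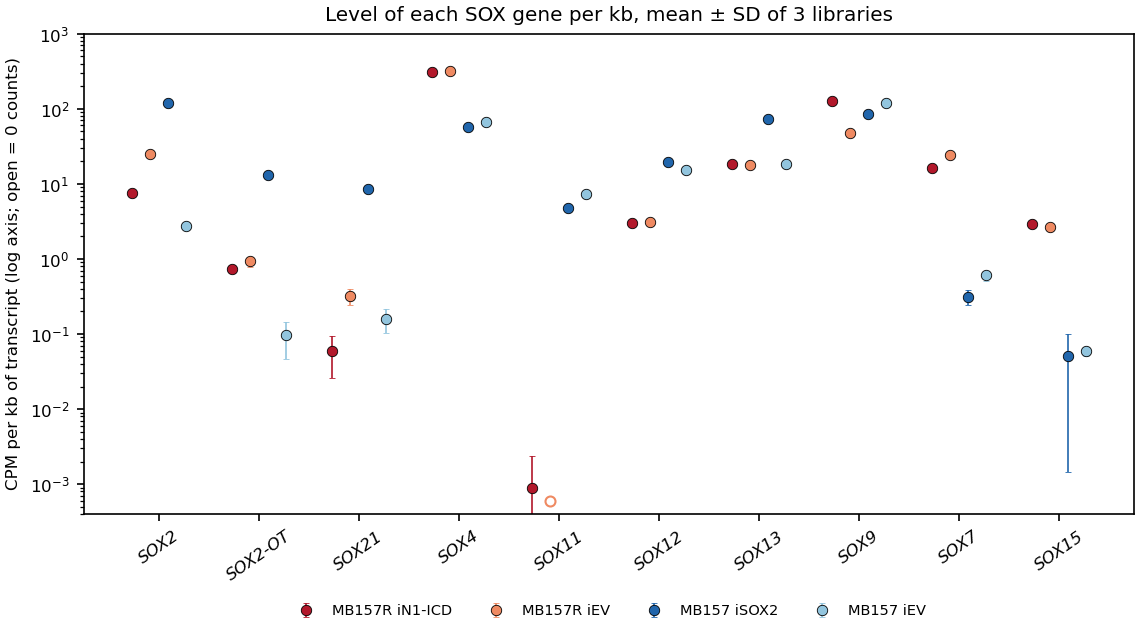
Mean CPM per kb of canonical transcript (log axis) with the SD of 3 libraries for each gene and group, open where all 3 libraries had 0 counts, lower bars cut at the axis where they pass 0. SOX4 leads in both MB157R groups at 306 and 317 CPM per kb, SOX9 leads in MB157 iEV, and SOX2 leads in MB157 iSOX2.

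Across groups, the order of levels differed from gene to gene. In the fit of 12 libraries, all neighbours in the order differed for SOX2, SOX21 and SOX7. The MB157R groups were not told apart for SOX2-OT (adjusted p = 0.095), SOX4 (adjusted p = 0.29), SOX11 (adjusted p = 0.32), SOX12 (adjusted p = 0.41), SOX13 (adjusted p = 0.56) and SOX15 (adjusted p = 0.59). For SOX13, MB157R iN1-ICD was not told apart from MB157 iEV (adjusted p = 0.96), nor MB157R iEV from it (adjusted p = 0.52), and for SOX15 MB157 iSOX2 was not told apart from MB157 iEV (adjusted p = 0.87). Of the comparisons across the vectors, MB157R iN1-ICD against MB157 iEV called 8 of the 10 genes, where 86.3% of 17103 entries were called, and SOX9 and SOX13 were the exceptions. MB157R iEV against MB157 iSOX2 and MB157R iN1-ICD against MB157 iSOX2 called 10 of 10 each, where 86.6% and 87.0% of all entries were called. Here SOX2 was lower in MB157R iEV than in MB157 iSOX2 (62.0 and 302 CPM), as were SOX2-OT (1.47 and 21.0 CPM) and SOX21 (0.942 and 24.7 CPM).

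The entries most like 5 of the genes in their pattern were sought by Pearson's r of log2(CPM + 1) over the 12 libraries, among 11598 entries with a group mean of at least 10 CPM. These are descriptions, and all points share the same 4 groups. Pearson's r takes no account of the size of a change. The SOX2 values of MB157 iSOX2 include the introduced cDNA. Nearest to SOX2 were DLX5, a homeobox factor (r = 0.995), MEGF9 (r = 0.995) and SESN1, a stress-response gene (r = 0.986). DLX5 averaged 7.91 CPM in MB157R iN1-ICD, 15.2 CPM in MB157R iEV, 43.9 CPM in MB157 iSOX2 and 4.73 CPM in MB157 iEV. Nearest to SOX21 were PTS, an enzyme of tetrahydrobiopterin synthesis (r = 0.997), USP33, a deubiquitinase (r = 0.995), and ARID5B, a DNA-binding factor (r = 0.993). USP33 averaged 91.0 CPM in MB157R iN1-ICD, 99.0 CPM in MB157R iEV, 140 CPM in MB157 iSOX2 and 95.4 CPM in MB157 iEV. It thus moved far less than SOX21.

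SOX11 was matched by genes that were likewise at or near 0 counts in MB157R. FLT4, which encodes a receptor of lymphatic endothelium (r = 0.9999), averaged 0.0400 CPM in MB157R iN1-ICD, 0 in MB157R iEV, 21.9 CPM in MB157 iSOX2 and 33.4 CPM in MB157 iEV. LOC102723517 (r = 0.9999) and NFASC, a neuronal adhesion gene (r = 0.9998), had the same shape. Nearest to SOX7 were FOXL1, a forkhead factor (r = 0.999), RABL6 (r = 0.999) and SYNJ2, an inositol phosphatase (r = 0.999), and FOXL1 averaged 12.7 CPM in MB157R iN1-ICD, 18.5 CPM in MB157R iEV, 0.0536 CPM in MB157 iSOX2 and 0.359 CPM in MB157 iEV. Among the entries nearest to SOX9 were TSC22D1 (r = 0.991) and THEMIS2 (r = 0.991). TSC22D1 averaged 164 CPM in MB157R iN1-ICD, 99.0 CPM in MB157R iEV, 135 CPM in MB157 iSOX2 and 163 CPM in MB157 iEV, the order of group means seen for SOX9.

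The HES and HEY repressors, which are direct targets of NOTCH, were called in all 3 comparisons. All 6 listed genes (HEY1, HEY2, HEYL, HES1, HES4 and HES5) were lower in MB157R iEV than in MB157 iEV, all 6 were higher in MB157R iN1-ICD than in MB157R iEV, and 5 were lower in MB157 iSOX2 than in MB157 iEV, where 86.7%, 52.8% and 56.3% of all entries were called. The median log2 fold changes were -6.35, 5.42 and -1.01, beside -0.08, 0.03 and 0.01 over all entries tested, and the first and second became -4.87 and 3.92 with the 3 genes at 0 counts in MB157R iEV set to their bound. HEY2, HEYL and HES5 had 0 counts in all MB157R iEV libraries, where SOX2 stood above its MB157 iEV level.

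HEY2 averaged 0.589 CPM in MB157R iN1-ICD, 1.70 CPM in MB157 iSOX2 and 10.8 CPM in MB157 iEV, and against the floor of 3 counts it was at least 25.3-fold higher in MB157R iN1-ICD than in MB157R iEV and at least 466-fold lower in MB157R iEV than in MB157 iEV. HEYL was at least 44.4-fold higher and HES5 at least 345-fold higher in MB157R iN1-ICD than in MB157R iEV. HES1 averaged 69.9 CPM in MB157R iN1-ICD, 46.4 CPM in MB157R iEV, 44.1 CPM in MB157 iSOX2 and 78.7 CPM in MB157 iEV. The exception was HEY1, which was 10.2-fold higher in MB157 iSOX2 than in MB157 iEV (48.5 and 4.75 CPM, log2 fold change 3.37 ± 0.08, SE, adjusted p = 1.7e-15, edgeR). HEY1 and SOX2 were both at their highest in the MB157 iSOX2 libraries. There the SOX2 counts include the introduced cDNA, so the level of the cell's own SOX2 beside HEY1 is not known.

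NOTCH1 stood at 2661, 1765 and 2619 CPM in MB157R iN1-ICD, 104, 87.3 and 93.2 CPM in MB157R iEV, 35.5, 40.0 and 35.1 CPM in MB157 iSOX2, and 108, 98.0 and 104 CPM in MB157 iEV. The MB157R iN1-ICD counts include the construct, and replicate 2 was the lowest of them. In MB157 iSOX2 cells NOTCH1 fell by 1.48 on the log2 scale relative to MB157 iEV (SE 0.05, adjusted p = 2.4e-13, edgeR).

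The 16 listed partner and pluripotency factors of SOX2 showed no common direction. In MB157R iEV against MB157 iEV 14 were tested, with 5 higher and 9 lower, where 86.7% of all entries were called, and a median log2 fold change of -0.91 beside -0.08 over all entries. In MB157 iSOX2 against MB157 iEV 3 were higher and 6 lower of 14 (56.3% of all entries called, median -0.25 beside 0.01), and in MB157R iN1-ICD against MB157R iEV 3 were higher and 1 lower of 10 (52.8% of all entries called, median 0.03 beside 0.03). Of 18 listed genes known to depend on SOX factors in neural, cartilage, endothelial or epithelial tissue, 11 were tested in the first comparison with 7 higher and 4 lower (median 0.26), 13 in the second with 3 higher and 5 lower (median -0.14) and 12 in the third with 6 higher and 4 lower (median 0.60). The shares and medians over all entries are those just given. NOTCH1 itself is one of these 18. It is among the 6 called higher in the third comparison and enters that median, although its counts there include the construct.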

How the data were processed

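Per the labels and the study's methods, stranded libraries of polyadenylated RNA were prepared from an input of 800 ng of RNA, and reads were mapped to hg38 with STAR and quantified with Salmon. The authors deposited expected counts (estimated counts, not normalized) for 29744 entries. Their gene annotation is not given in the sources used here. The authors also deposited 3 filtered tables of log2 CPM (edgeR 3.42.4, limma 3.56.2), used here only to say which genes passed their filter. Of the deposited values, 88.0% were whole at a tolerance of 1e-06, and counts were rounded before testing.

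Each comparison was fitted on its 6 libraries with edgeR 4.0.16 (R 4.3.3), TMM factors computed from those libraries and the quasi-likelihood test over the genes of the authors' table, or over entries with a mean count of at least 5 for genes absent from it. Order of levels came from 1 fit of all 12 libraries. The test was checked on simulated counts in which few genes changed. That check does not cover shares of calls as large as those here. Since how the replicates were cultured is not stated, p-values reflect only the spread among the libraries. Replicates differed by more than sampling noise (chi-square per gene 3.78 to 18.8).

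The genes, lists and naming rule (all 10 genes, other SOX genes with a group mean of at least 1 CPM, the 3 entries most correlated with each of 5 genes, the 3 nearest genes on each side of SOX2, 5 HES and HEY genes, and NOTCH1) were chosen with earlier results of these data known. The cell type markers, SOX21-AS1, SOX9-AS1 and HES4 come from those lists and are named for their values. An entry that the rule gives for SOX9 is not reported here. Positions are from GENCODE v44 on GRCh38, and promoter sequences from RefSeq. Alternatives were RLE factors, library totals, other filters, limma-voom 3.58.1, DESeq2 1.42.0, the other number of libraries, a replicate block and leaving out each library.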

Additional observations from a re-analysis of the deposited data

How the results depend on the processing

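Over 782 log2 fold changes of single genes under alternative settings, 776 stayed on the same side of the threshold, 3 lost a call and 3 gained one. None that was called in the main or the alternative fit changed direction. Changes of direction among values called in neither fit were not counted. The 6 that changed came from leaving out 1 library and concern SOX21, SOX13 and SOX9, as given with those genes. The number of genes called moved with them, between 8 and 10 in MB157R iEV against MB157 iEV and between 8 and 9 in MB157R iN1-ICD against MB157 iEV, and was otherwise the same under each setting. By the TMM factors of the 12 libraries, library totals in their place shift MB157R iEV against MB157 iSOX2 by -0.12 on the log2 scale and the other 5 comparisons by less than that. The fits of 6 libraries have factors of their own. With the replicate number as a replicate block, 9, 9 and 4 genes were called in the 3 main comparisons, as without it. Deviations of same-numbered replicates correlated between -0.085 and 0.018, so the numbers were not taken as pairs. Depth limits SOX21, SOX2-OT and SOX15, which held 12 counts or fewer in some libraries, and SOX11 in MB157R cells.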
